A study of Arabidopsis thaliana with 18 samples.

Results

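Alternative 5′ splice sites, called donors below, were described where a gene joined either of 2 donors to the same acceptor and the donors lay more than 30 nt apart. The members were the 925 events of this kind that were listed for every library, of 1307 alternative donor events and 5403 splicing events of all types. The distance was taken as the difference between the lengths of the 2 introns given for an event. The members lay in 723 genes, and 601 of these genes held 1 member each. At the threshold itself, the members 31 nt apart with most reads were in UBC10, a ubiquitin-conjugating enzyme, with 0.148% ± 0.023 use of the downstream donor in Col-0 (SD, n = 2), and in AT1G20810, with 11% ± 0.92. The events 30 nt apart with most reads, in AT5G11840 and AT3G05160, averaged 99.1% and 97.4% over all libraries.

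PolyA RNA had been sequenced from the first leaf of Arabidopsis thaliana seedlings 14 days old, grown on Murashige and Skoog plates with 1% sucrose, with 16 h of light at 22 °C and 8 h of dark at 18 °C a day. The groups were the accessions Bur-0, C24, Kro-0 and Ler-1, the F1 hybrids Col-0 x Bur-0, Col-0 x C24, Col-0 x Kro-0 and Col-0 x Ler-1, and the accession Col-0, with 2 biological replicate libraries in each of the 9 groups and 18 in all. An accession is an inbred natural strain, and an F1 hybrid carries 1 genome copy of each parent in every cell. The labels state neither how many plants went into a library nor which parent of a cross was the mother.

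A donor is recognised first by base pairing with the U1 small nuclear RNA, and later in the assembly of the spliceosome by U6. Its consensus covers the last exon bases and the first intron bases, with GT at the start of nearly every intron. Where a pre-mRNA has more than 1 usable donor for an acceptor, the upstream one removes a longer intron and the downstream one leaves more sequence in the transcript. Such a choice can lengthen a 5′ untranslated region, insert or remove amino acids, or bring in an early stop codon, which in plants often exposes a transcript to nonsense-mediated decay.

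The sequences below are from members whose donor use differed, as described further on. Each is shown as the TAIR10.1 RefSeq genome of Col-0 has it, 5′ to 3′ on the strand of the gene. The letters of the other accessions were not used here. Capitals mark the last 3 exon bases and the first 6 intron bases, the stretch that was scored. The score is the log2 odds of those letters under the base frequencies of 130696 annotated donors, against the base composition of the genome, and those donors had a median score of 6.91 with a 5th percentile of 2.91. The most frequent base at each position spells AAGGTAAGT.
MGT2 upstream donor, chr1:5497234-5497257, minus strand: ttcctaaCTGGTATTTgttcttta
MGT2 downstream donor, chr1:5497182-5497205, minus strand: ttttttgGTGGTTTGTgaaactac
AT5G09880 upstream donor, chr5:3083915-3083938, minus strand: aaggcgtCGGGTATGTttcttcag
AT5G09880 downstream donor, chr5:3083725-3083748, minus strand: cgtggtcAAGGTAGATgtcagaaa
AT1G17145 upstream donor, chr1:5862593-5862616, minus strand: caacattACTGTATATctctttcg
AT1G17145 downstream donor, chr1:5862504-5862527, minus strand: agcttttAAGGTTTCTtctctgac
AT3G57810 upstream donor, chr3:21415929-21415952, plus strand: gaaatcaGAGTTGAGTataataaa
AT3G57810 downstream donor, chr3:21415977-21416000, plus strand: gtccaccTTGGTAATCctccattc
AT3G05160 upstream donor, chr3:1455637-1455660, minus strand: tagctacGTGGTAATTtaaagtta
AT3G05160 downstream donor, chr3:1455482-1455505, minus strand: ttcaaccCTGGTAAATtttatcta
PAT1 upstream donor, chr5:19524489-19524512, minus strand: aaaaagtCAGGTGGGTactactaa
PAT1 downstream donor, chr5:19524295-19524318, minus strand: acctaaaAAGGTATGAatttgtag
SOS4 upstream donor, chr5:15065470-15065493, plus strand: gaaatctCCGGTTTTGctcaaacc
SOS4 downstream donor, chr5:15065503-15065526, plus strand: ttgtacaATTGTACTTaactaata
TMT2, the first donor, chr4:16799660-16799683, minus strand: aaaacggCAGGTGTCActaatccc
TMT2, the second donor, chr4:16799600-16799623, minus strand: aaaaaaaAAAGTATTCatttttat
TMT2, the third donor, chr4:16799442-16799465, minus strand: ccaattcCAAGTTGCTaaccctag
TMT2, the fourth donor, chr4:16799411-16799434, minus strand: ctctctcTCTGTATATcatattct
The 4 TMT2 donors are shown because 1 acceptor drew on all of them, and all 4 score below the median of annotated donors. The 2 letters after the exon are GT in each site shown except the upstream donor of AT3G57810, which has TT in the reference and a score of -9.36.

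The deposited measure is PSI, the reads of the shorter intron divided by the reads of both introns plus 1, given here in percent. PSI is therefore the use of the downstream donor, and because of the added 1 it stays below 100% where no read of the longer intron was counted. Libraries held 3186952 to 6134488 reads over their listed events, and the members took 312288 to 593625 of them, with a median of 57 to 109 reads per member. Of the members, 815 had at least 10 reads in every library, and medians below are over those. A member's PSI differed by 1.62 to 2.17 points at the median between the 2 libraries of a group. Limits given for a form with 0 reads are 3 reads of the total and cover counting error only.

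The label of an alternative donor did not describe every member in the same way. In 548 members no annotated intron led from the upstream donor to an acceptor between the donors. These are called same-exon pairs below, though it was not checked that both donors lay in or beside 1 exon. In the other 377 (40.8%) such an intron ended between the donors, so that the longer intron ran over an annotated exon start. These are called pairs with an exon between. That exon was taken to run from the nearest such start to the downstream donor. The shorter intron, which begins there, was annotated in 332 of the 377. For 288 of those 377 the longer intron also stood in the list of skipped exon events, against 26 of the 548 same-exon pairs. None of the 382 donor pairs within 30 nt had an exon between them. Pairs with an exon between lay 269 nt apart at the median and at least 81 nt, and same-exon pairs 93 nt. Over all members the distance ran from 31 to 2774 nt, with a median of 160 nt.

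The stretch between the donors was in the coding span in 550 members (59.5%), in the 5′ UTR in 310 (33.5%) and in the 3′ UTR in 24. Of the 382 pairs within 30 nt, 58 (15.2%) lay in the 5′ UTR. Both introns were annotated in 395 members, only the longer in 209, only the shorter in 273 and neither in 48. Intron starts were GT at 916 upstream and 910 downstream donors, and GC at 7 and 11. Among 294 same-exon pairs in a coding span with a readable frame, the kept stretch was a multiple of 3 in 94 (32.0%), held an in-frame stop in 159 (54.1%), and kept the frame without a stop in 43 (14.6%). Of 293 such pairs within 30 nt, 76 (25.9%) kept the frame without a stop. Of the 239 coding members with an exon between, that exon was a multiple of 3 in 85 (35.6%), with a median exon length of 77 nt.

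Most members used 1 of their donors almost alone. In Col-0, 301 of the 815 members had a PSI under 10%, 277 one over 90% and 237 one between. Below 10% in all 9 groups were 222 members, above 90% in all 9 were 209, and 116 stayed between 10% and 90% in every group. The median PSI was 43.9% in Bur-0, 43.1% in Kro-0, 40.5% in C24 and 37.9% in Ler-1, 39.0% to 43.4% in the hybrids, and 42.1% in Col-0. The 2 Kro-0 libraries had medians of 40.9% and 47.6%, so the gap between these replicates was wider than the range of the 9 group medians. The pairs with an exon between had a median of 86.1% in Col-0, the same-exon pairs 12.9%, and all 4900 events with this depth 67.4%. The pairs with an exon between were not uniform: the median was 91.6% for the 224 in the coding span and 17.5% for the 88 in the 5′ UTR, and 29.4% for the 167 with both introns annotated. Where only the longer intron was annotated the Col-0 median was 2.02%, where only the shorter was annotated 97.4%, and where both were 20%.

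**Figure D1:**
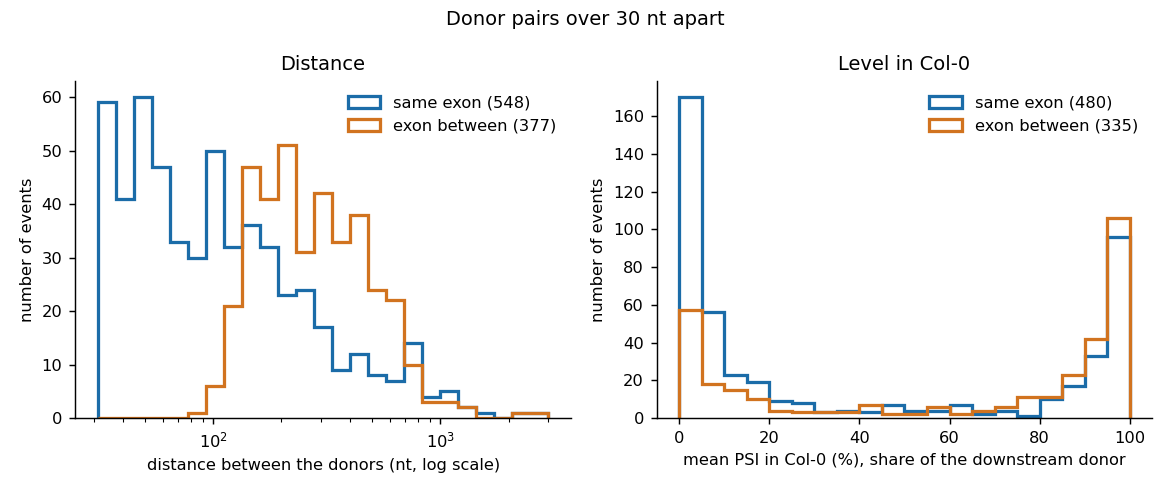
Left, the number of donor pairs over 30 nt apart by the distance between the donors in nt on a log scale, and right, the number by mean PSI in Col-0 in percent, with same-exon pairs in blue (548, of which 480 with enough reads) and pairs with an annotated exon between in orange (377 and 335). Same-exon pairs lie mostly at short distances and low PSI (medians 93 nt and 12.9%), pairs with an exon between at longer distances (269 nt) and at both ends of the PSI scale (median 86.1%, and 17.5% for those in the 5′ UTR), and few pairs of either kind have a PSI near 50%.

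The members nearest an even use of both donors included AT5G24000, with a mean PSI of 44.5% in Bur-0, 45.8% in Kro-0, 56.2% in C24, 43.8% in Ler-1 and 47.7% in Col-0, and IDD4, a zinc finger protein of the INDETERMINATE DOMAIN family, with 61.2%, 50.9%, 37.2%, 62.6% and 60.2% in the same accessions in that order. Neither was called in any comparison below. The member with most reads was in LHCA2, an antenna protein of photosystem I, where the PSI was between 99.96% and 100% in each of the 18 libraries, and no accession was called against Col-0. GRP7, a clock-controlled RNA-binding protein that regulates splicing of its own transcript, had a member 166 nt apart with a PSI of 7.49% and 9.74% in C24, 7.69% and 9.67% in Ler-1, 8.28% and 14.0% in Kro-0, 18.2% and 20.6% in Bur-0, and 14.6% and 23.2% in Col-0. The Ler-1 and C24 libraries lay below both Bur-0 and Col-0, but none of the 4 comparisons with Col-0 was called for this member (lowest adjusted p = 0.494, edgeR quasi-likelihood test).

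The donor score followed the level only loosely. Of 807 members with 2 scored donors of unequal score, the higher-scoring donor was the major one in Col-0 in 466 (57.7%). The share was 298 of 473 (63.0%) for same-exon pairs and 168 of 334 (50.3%) for pairs with an exon between. The median Col-0 PSI was 10.7% where the downstream donor scored more than 4 below the upstream one (119 members), 50.6% where it scored up to 2 below (237 members), and 91.6% where it scored 2 to 4 above (73 members). The 2 arrangements differed within these classes: at up to 2 below, same-exon pairs had a median of 18.4% and pairs with an exon between 80.9%, and at 2 to 4 below, 4.76% and 84.3%. Spearman's rho of the score difference with Col-0 PSI was 0.229 across 810 members. Members of 1 gene share donors and reads, and the reference letters are those of Col-0. Use of the minor donor did not fall with distance in these events: its Col-0 median was 3.11% at 31 to 60 nt and 5.87% above 480 nt.

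Each accession was compared with Col-0 to find where donor use had diverged between the parents of a cross. An event was called at an adjusted p under 0.05 in the edgeR test, adjusted over all events of all types, and the 4 comparisons share the 2 Col-0 libraries. In Bur-0, 78 of 864 tested members were called (9.03%), against 8.95% of all tested events. In C24 it was 51 of 834 (6.12%), against 6.02%, in Kro-0 34 of 843 (4.03%), against 5.19%, and in Ler-1 58 of 859 (6.75%), against 6.97%. The members were thus called at about the rate of all events. Donor pairs within 30 nt were called in 6.61%, 5.03%, 4.19% and 4.64% of cases in the same comparisons, and the difference between distant and near pairs was not tested. Without 1 of the 4 libraries compared the counts of members were 33 to 58 in Bur-0, 17 to 26 in C24, 19 to 25 in Kro-0 and 19 to 29 in Ler-1, and the library that gave the lowest count was Bur-0 replicate 2, C24 replicate 2, Kro-0 replicate 2 and Ler-1 replicate 1.

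The downstream donor was used more in Bur-0 in 49 of its 78 called members and less in 29, where 4.56% and 4.4% of all events were called higher and lower. In C24 the split was 22 higher and 29 lower (2.6% and 3.42% of all events), in Kro-0 21 and 13 (1.92% and 3.28%), and in Ler-1 29 and 29 (2.8% and 4.17%). All events include other types, such as skipped exons, where PSI is not the use of a downstream donor. The direction over all events is therefore an unlike measure. Of the called members, 31 differed by 10 points or more for Bur-0, 25 for C24, 15 for Kro-0 and 21 for Ler-1, where 5.14%, 3.85%, 3.32% and 3.91% of all events did so. The median absolute difference among the called members was 7.04 points for Bur-0, 9.54 for C24, 8.46 for Kro-0 and 6.99 for Ler-1, and calls went down to 0.0655 points in deeply read genes. Over all tested members the median difference was 0.0881 points for Bur-0, -0.167 for C24, -0.0755 for Kro-0 and -0.0063 for Ler-1. Over all events it was 0.0031, -0.249, -0.347 and -0.107 points.

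**Figure D2:**
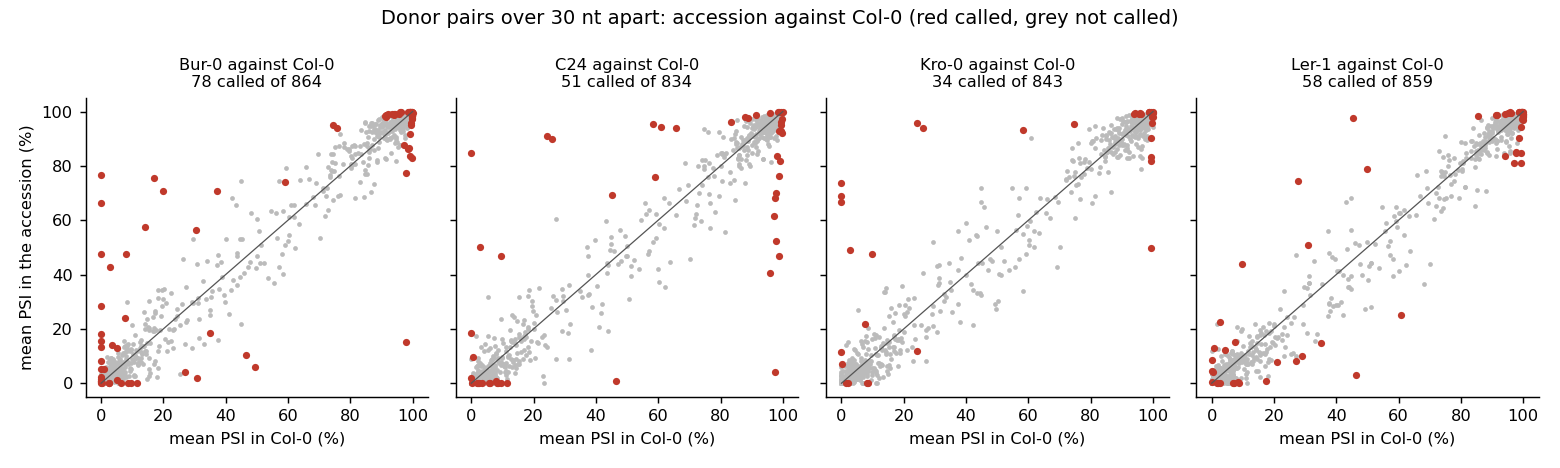
Mean PSI (%) of each donor pair in an accession, on the vertical axis, against Col-0, on the horizontal axis, with called pairs in red, other tested pairs in grey and the line of equal PSI. Most pairs lie near the line, and the called ones include pairs far from it, such as MGT2 at 76.5% in Bur-0 and 0% in Col-0 and AT3G57810 at 4.17% in C24 and 97.4% in Col-0.

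The largest rise in Bur-0 was in MGT2 (AT1G16010), a magnesium transporter of the CorA type. Its PSI was 75.3% and 77.7% in Bur-0, and 30.8% and 43.7% in Col-0 x Bur-0, while Col-0 showed 0 of 205 reads, a limit of 1.46%. Kro-0 had 75.5% and 62.3%, and Col-0 x Kro-0 had 35.4% and 29.4%. C24 had 0 of 137 reads (up to 2.19%), and Ler-1 had 1 read among 248. The downstream donor thus appeared in 2 accessions and their hybrids, with an adjusted p of 4.34e-09 in Bur-0 and 2.85e-08 in Kro-0. It keeps 52 nt of the 5′ UTR (chr1:5497196-5497247) and both of its letters are GT in the reference, with a score of 6.30 against 6.95 upstream. A second MGT2 member joined the same donors to another acceptor and gave 61.1% and 71.4% in Bur-0, 84.6% and 62.5% in Kro-0, and 0 of 117 reads in Col-0.

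AT5G09880, a splicing factor of the RBM39 and CC1 type, had a PSI of 76.5% and 74.3% in Bur-0, 71.3% and 60.9% in Col-0 x Bur-0, and 17.9% and 16.1% in Col-0 (adjusted p = 1.45e-07). The other accessions stood at 6.02% to 20.8%, so only the 2 Bur-0 libraries and their hybrid were high. The downstream donor keeps 190 nt of the coding span (chr5:3083739-3083928) with a stop in frame, and its intron is not annotated. A second AT5G09880 member was called lower in Bur-0. Its means were 4.25% in Bur-0, 4.57% in Col-0 x Bur-0 and 27.0% in Col-0. GSL03 (AT2G31960), of the callose synthase family, rose by 50.7 points. It had 67.6% and 73.9% in Bur-0, 33.9% and 35.1% in Col-0 x Bur-0, and 21.8% and 18.3% in Col-0, with 33 and 22 reads in the Bur-0 libraries (adjusted p = 9.2e-05). An annotated 49 nt exon of the 5′ UTR lies between its donors.

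QQT2 (AT4G21800), a small GTP-binding protein needed for embryo development, rose in Bur-0 and in Ler-1. It had 42.0% and 43.6% in Bur-0 (adjusted p = 4.16e-05), 15.8% and 29.2% in Ler-1 (adjusted p = 0.00543), and 4.35% and 1.12% in Col-0, while C24 and Kro-0 had at most 3.03%. AT1G20890 used a donor 37 nt downstream in 58.3% and 36.8% in Bur-0 and in 0 of 50 Col-0 reads, which allows up to 6%. Its reads in Bur-0 were few, 23 and 18.

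AT1G17145 moved in the other direction, to a donor 89 nt upstream in the 5′ UTR. Its PSI was 11.1% and 19.4% in Bur-0 and 66.7% and 71.4% in Col-0 x Bur-0, against 97.8% and 97.6% in Col-0, where 0 of 86 reads used the upstream donor, a limit of 3.49% (adjusted p = 1.64e-06). The other 3 accessions had no read of the upstream donor either. Its reference letters score 2.73, below the 5th percentile of annotated donors, against 5.91 for the downstream one. AT3G57470, of the insulinase family of metallopeptidases, fell in 3 accessions. It had 12.5% and 8.47% in Bur-0, 4.82% and 1.20% in Ler-1, 1.67% and 0% in C24, and 40.5% and 52.4% in Col-0, with adjusted p of 0.000337, 3.41e-06 and 5.76e-06. Kro-0, at 56.5% and 58.6%, lay above Col-0 without a call (adjusted p = 0.478). The kept 92 nt lie in the coding span, shift the frame and hold a stop.

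**Figure D3:**
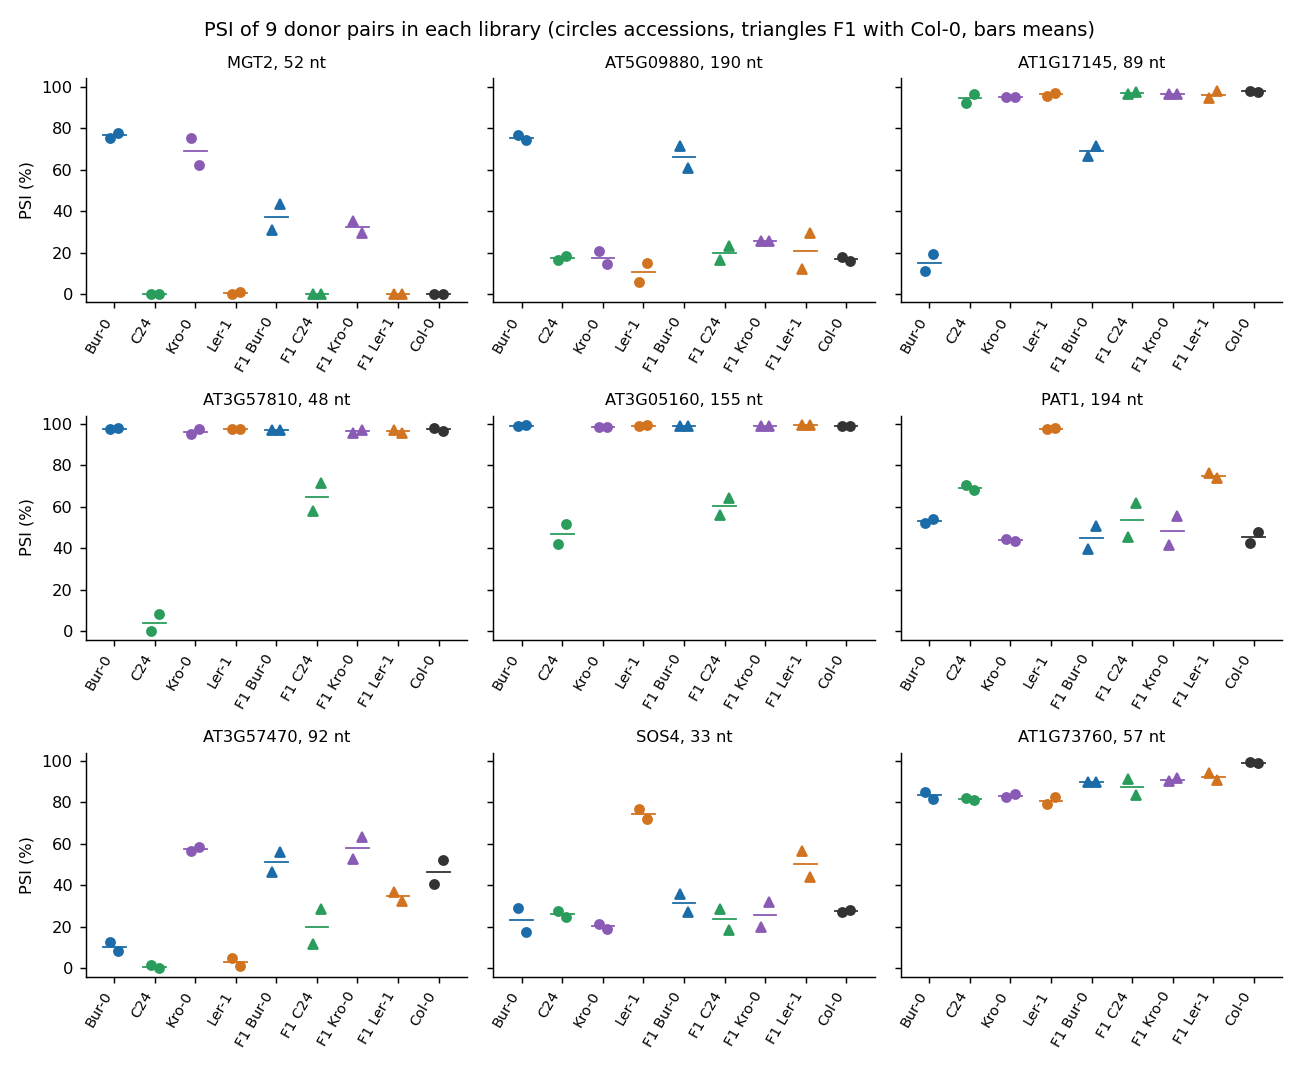
PSI (%) of 9 donor pairs in each of the 18 libraries, with accessions as circles, F1 hybrids as triangles and group means as short bars, and the distance between the donors in each panel title. The 2 libraries of a group lie over 10 points apart in some cases, such as MGT2 in Kro-0 (75.5% and 62.3%), and different accessions stand apart in different pairs, such as Bur-0 and Kro-0 for MGT2, C24 for AT3G57810 and AT3G05160, and Ler-1 for SOS4.

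Several of the largest falls in C24 were of downstream donors that Col-0 used almost alone. AT3G05160, of the sugar transporter family, had a PSI of 42.2% and 51.7% in C24, 56.1% and 64.2% in Col-0 x C24, and 98.8% and 98.9% in Col-0, where 0 of 171 reads used the upstream donor, a limit of 1.75% (adjusted p = 4.51e-07). The upstream donor took no read in Bur-0, Kro-0 or Ler-1 (0 of 243, 124 and 258). A 66 nt annotated exon lies between the donors, so the upstream form leaves it out, and that longer intron is not annotated. CAT3 (AT5G36940), a cationic amino acid transporter, gave the same picture around a 76 nt exon. It had 55.6% and 67.5% in C24, 79.7% and 80.4% in Col-0 x C24, and 96.3% and 97.7% in Col-0, with 0 of 69 Col-0 reads skipping the exon (adjusted p = 0.000549). AT1G34200 fell to 40% and 40.9% in C24, against 96.3% and 95.3% in Col-0 (adjusted p = 4.37e-05). A second AT3G05160 member was called in Bur-0, Kro-0 and Ler-1. Its means were 99.2%, 99.6% and 83.6% in that order, against 94.2% in Col-0.

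AT3G57810 had a PSI of 0% and 8.33% in C24, 57.9% and 71.4% in Col-0 x C24, and 98.1% and 96.7% in Col-0 (adjusted p = 4.94e-06). Its C24 libraries had 13 and 11 reads, 23 of the 24 from the upstream donor, which took 0 of 83 reads in Bur-0, 56 in Kro-0, 79 in Ler-1 and 81 in Col-0. This is the donor whose reference letters are TT. GGH3 (AT1G78670), a gamma-glutamyl hydrolase, had 92.9% and 76.9% in C24, 2.52% and 4.51% in Col-0 x C24, and 0 of 653 reads in Col-0, a limit of 0.459% (adjusted p = 8.65e-08). Only 25 C24 reads stood behind this event, against 653 in Col-0. In a hybrid, reads of the 2 parental copies are counted together, so a copy with few transcripts and a copy with another donor choice cannot be told apart there. RBL6 (AT1G12750), a rhomboid-like protease, rose in C24 (52.0% and 48.4%, adjusted p = 0.00029) and in Kro-0 (39.1% and 59.1%, adjusted p = 0.000821), against 5.41% and 0% in Col-0.

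In Kro-0 the largest rise outside MGT2 and TMT2 was in AT1G48610, with 60% and 73.3% in Kro-0, 27.3% and 26.3% in Col-0 x Kro-0, and 0 of 61 reads in Col-0, a limit of 4.92% (adjusted p = 4.29e-05). RS40 (AT4G25500), an arginine and serine rich splicing factor, fell to 11.9% and 12% in Kro-0, against 23.4% and 25.2% in Col-0 (adjusted p = 0.0458). C24 had 13.2% in both libraries without a call (adjusted p = 0.106). The Kro-0 call of RS40 was lost without any 1 of the 4 libraries compared and with 4 other settings, DESeq2 among them. The member named after AT4G17510 and AT4G17512, 2113 nt apart, stood at 49.8% in both Kro-0 libraries and at 99.4% in both Col-0 libraries. Its introns had equal counts in Kro-0, 101 and 101 reads in replicate 1 and 102 and 102 in replicate 2. In the Kro-0 assembly the 2 introns have the same length, against 2082 to 2083 nt apart in the assemblies of the other accessions, and Col-0 x Kro-0 was at 98.9% and 99.1%. That value is therefore no measure of donor choice, and without this event 33 members were called in Kro-0.

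In Ler-1 the largest rise was in PAT1 (AT5G48150), of the GRAS family, which acts in phytochrome A signalling. Its PSI was 97.5% and 97.9% in Ler-1, 76.1% and 73.8% in Col-0 x Ler-1, and 42.6% and 47.9% in Col-0 (adjusted p = 2.14e-08). C24 was also higher, at 70.7% and 67.9% (adjusted p = 0.0197), while Bur-0 and Kro-0 were at 43.7% to 54.1%. An 80 nt exon of the 5′ UTR lies between the PAT1 donors, so nearly all Ler-1 reads used the donor after it. SOS4 (AT5G37850), a pyridoxal kinase of vitamin B6 metabolism, had 76.9% and 72.3% in Ler-1, 56.7% and 44.0% in Col-0 x Ler-1, and 27.0% and 28.3% in Col-0 (adjusted p = 8.89e-06). No other accession passed 29.0%. Its donors lie 33 nt apart in the coding span, and the kept stretch holds a stop. VAB2 (AT4G38510), a B subunit of the vacuolar H+-ATPase, rose to 76.7% and 81.2% in Ler-1, against 41.4% and 58.5% in Col-0 (adjusted p = 0.0012).

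AT1G73760 and AT1G67195 were among the members called in every accession, as were members of CA1, CYSC1, TAP38 and PDX2. In AT1G73760 the PSI was 85.3% and 81.6% in Bur-0, 82.7% and 84.0% in Kro-0, 82.0% and 81.3% in C24, 79.2% and 82.7% in Ler-1, and 99.3% and 99.2% in Col-0, with adjusted p of 1.97e-05, 3.6e-05, 2.39e-05 and 1.01e-05. The 4 comparisons share the Col-0 libraries. No Col-0 read among 257 came from the upstream donor. In the coordinates of all 4 other assemblies its donors lie 60 nt apart, against 57 nt in TAIR10. At the locus AT1G67195 the downstream donor took 0 of 273 reads in Bur-0, 267 in Kro-0, 161 in C24 and 269 in Ler-1, and had a PSI of 11% and 6.29% in Col-0. A CIPK3 member, in a calcium sensor-interacting kinase of stress and abscisic acid signalling, stood at 26.5% and 21.2% in Bur-0, 14.8% and 15.8% in Ler-1 and 22.1% and 21.7% in Kro-0, against 7.52% and 7.66% in Col-0 (adjusted p = 0.000591, 0.0489 and 0.00205), while C24, at 12.7% and 15.0%, was not called (adjusted p = 0.144).

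Further members were named by the size of their difference. AT1G36070 rose to 52.9% and 61.9% in Bur-0, against 10% and 18.3% in Col-0 (adjusted p = 0.00397). AT4G10970 fell to 8.89% and 2.78% in Bur-0, against 48.6% and 50% in Col-0 (adjusted p = 0.000202). A second AT4G10970 member was called higher in Bur-0, with means of 18.0% in Bur-0 and 0% in Col-0. ATMAK3 (AT2G38130), an N-terminal acetyltransferase, fell to 74.1% and 80.7% in Bur-0 and to 65.3% and 39.1% in C24, against 98.0% and 97.9% in Col-0 (adjusted p = 0.00327 and 6.79e-05). AT3G42150 had a PSI of 48.4% and 47.0% in Kro-0, 44.4% and 49.3% in C24, 41.4% and 46.2% in Ler-1, and 19.3% and 0% in Col-0 (adjusted p = 0.0167, 0.0138 and 0.0212), and Bur-0 split in the same way as Col-0, with 25% in replicate 1 and 0% in replicate 2.

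UKL4, a uridine kinase-like protein, had a PSI of 7.46% and 12.8% in Ler-1, against 30.8% and 27.4% in Col-0 (adjusted p = 0.0133). TH9, a thioredoxin of the h type, had 7.14% and 9.43% in Ler-1, against 25.5% and 28.7% in Col-0 (adjusted p = 0.0223). Both Ler-1 libraries lay below both Col-0 libraries in these 2 genes, as the rule for naming members required. Both members lie in the 5′ UTR. AT4G00810 fell in Bur-0 (16.2% and 20.4%, adjusted p = 0.0479) and in Ler-1 (16.7% and 12.8%, adjusted p = 0.00712), against 35.5% and 34.4% in Col-0. AT4G10060 fell in Kro-0, where replicate 1 had 90.9% and replicate 2 had 72.3%, against 99.5% in both Col-0 libraries (adjusted p = 0.000177). AT5G58990 was lower in Bur-0, Kro-0 and Ler-1, with 91.2% and 92.3%, 94.3% and 86.0%, and 93.2% and 95.4%, against 99.3% in both Col-0 libraries (adjusted p = 0.00425, 0.00523 and 0.0114). In these 3 genes no library of a called accession overlapped Col-0, which the rule for naming members required.

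In 4 more genes 1 accession each was called. AT1G70790 had a PSI of 4% and 0% in Bur-0, against 17.4% and 43.9% in Col-0 (adjusted p = 0.0149). AT1G54110 had 95.8% and 92.3% in C24, against 51.7% and 80% in Col-0 (adjusted p = 0.0272). AT2G24690 had 94.4% and 96.3% in Kro-0, against 72.7% and 76.5% in Col-0 (adjusted p = 0.0363), and C24 had 94.7% and 92.3% without a call (adjusted p = 0.0602). The Col-0 libraries of AT1G70790 and AT1G54110 differed by more than those of AT2G24690. AT3G18500 had 98.0% and 98.5% in Ler-1, against 86.7% and 84.1% in Col-0 (adjusted p = 0.03), and C24 had 96.8% in both libraries without a call (adjusted p = 0.101).

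TMT2 (AT4G35300), a sugar transporter of the vacuolar membrane, held 10 members, which resolved into 5 donors of 1 acceptor with introns of 506, 446, 288, 257 and 213 nt, and the shares below are of the reads of these 5. They were chosen for description after their values were seen and carry no test of their own. The second donor took 2.63% ± 3.72 of the reads in C24 and 0 of 87 in Kro-0 (up to 3.45%), 38.7% ± 0.353 in Col-0 x C24 and 48.9% ± 8.90 in Col-0 x Kro-0, and 52.6% ± 2.92 in Col-0 (SD, n = 2 each). In its place the third donor took 54.5% ± 10 in C24, 57.3% ± 0.868 in Kro-0 and 17.4% ± 6.24 in Col-0. The fourth took 42.9% ± 6.30 in C24, 39.3% ± 0.992 in Kro-0 and 19.0% ± 4.51 in Col-0. Bur-0 and Ler-1 kept the second donor at 49.6% ± 9.90 and 53.2% ± 3.83. In Ler-1 the fourth donor took 6.73% ± 1.12, below both Col-0 libraries, which had 22.2% and 15.8%. As a pair, the second and the third donors gave a PSI of 85.7% and 96.0% in C24 (adjusted p = 3.77e-05), 94.4% and 97.1% in Kro-0 (adjusted p = 7.9e-06), and 18.9% and 29.7% in Col-0.

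**Figure D4:**
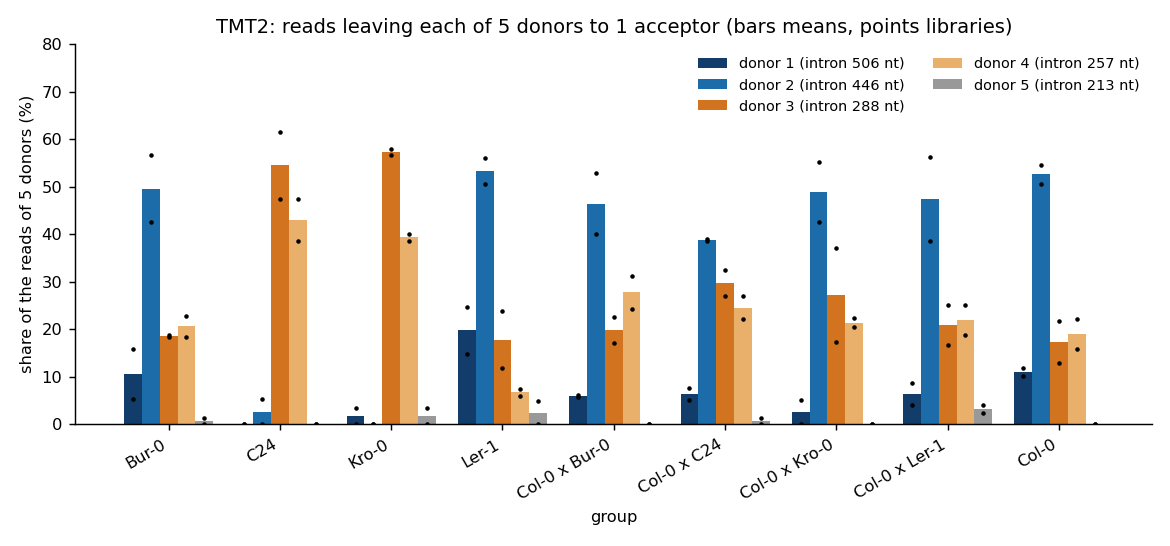
Share (%) of the reads that left each of 5 TMT2 donors for 1 acceptor, by group, with bars for the mean of 2 libraries and points for the libraries. The second donor is near 0% in C24 (2.63%) and Kro-0 (0%) and near 50% in Bur-0 (49.6%), Ler-1 (53.2%) and Col-0 (52.6%), and the 2 hybrids with C24 and Kro-0 lie between their parents for the second, the third and the fourth donors.

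Whether any accession differed was tested over all 4 effects together, and 165 of 820 members were called (20.1%), against 19.8% of all events and 13.3% of donor pairs within 30 nt. Without either Bur-0 replicate the count was 108, and limma on PSI called 90. The 4 effects differed from each other in 129 members (15.7%), against 15.8% of all events. By arrangement, 20.5% of the same-exon pairs and 19.5% of the pairs with an exon between were called for any difference. By annotation, the share was 13.4% where both introns are annotated, 23.2% where only the longer is and 27.1% where only the shorter is. These shares were not tested against each other. Across the 9 group means, the range of a member was 6.64 points at the median, against 8.17 over all events, and 96 of 815 (11.8%) had a range of 20 points or more, against 15.7% of all events. In 59 members the group means lay on both sides of 50%.

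The event names give each intron also in the assembly of the accession itself, so lengths could be compared with TAIR10. The distance between the donors differed in 128 members for Bur-0, 127 for C24, 115 for Kro-0 and 113 for Ler-1. Of these, 22.0%, 10.5%, 13.8% and 12.5% of the tested ones were called in the same accessions. Where both introns differed in length by the same amount, so that the distance was unchanged, 15.6%, 6.48%, 8.64% and 17.6% were called. Where both lengths were as in TAIR10, 5.58%, 5.23%, 2.10% and 4.14% were called. The part of the length changes in these calls was not tested. Among the named members, the MGT2 donors were 51 nt apart in Bur-0 and Kro-0, the 2 accessions with high PSI, against 52 nt in TAIR10. The AT3G57470 donors were 82 nt apart in C24 and Ler-1, against 92 nt in TAIR10 and in Bur-0, where the member was also called, and the CAT3 donors 170 nt in C24, against 180 nt. Other length changes came without a call: the AT4G10970 donors were 114 nt apart in all 4 accessions, against 109 nt, and Bur-0 alone was called. The ATMAK3 donors were 170 nt apart in Bur-0, C24 and Kro-0, against 168 nt, and Kro-0 was not called (adjusted p = 0.558).

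Each hybrid was compared with the mean of its parents to find donor use that an F1 does not share with the parental average. The test works on the log2 odds, where a parent with 0 reads of 1 form draws the average far toward it, so the PSI of both parents is given beside it. No member was called in Col-0 x Bur-0 (0 of 855, against 0.098% of all events), Col-0 x C24 (0 of 832, against 0.0597%) or Col-0 x Kro-0 (0 of 834, against 0.0795%) by the edgeR test. In Col-0 x Ler-1 it was 1 of 855 (0.117%), against 0.137%. At an unadjusted p under 0.05 the counts of members were 67, 59, 55 and 61, where 6.47%, 7.35%, 7.26% and 7.87% of all events passed. DESeq2 called 0, 1, 1 and 1 members, and 0.196%, 0.119%, 0.159% and 0.375% of all events to which it gave an adjusted p. Limma on PSI called 3, 3, 5 and 0 members, and 0.392%, 0.219%, 0.278% and 0.0586% of all events.

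The member called was in AT5G61820, with a PSI of 2.01% and 1.17% in Col-0 x Ler-1, 0 of 4570 reads in Ler-1, and 2.21% and 1.96% in Col-0 (adjusted p = 0.0311). The hybrid was 0.551 points above the mid-parent and between its parents. The call was lost with limma (adjusted p = 1), with scaling factors per form (adjusted p = 0.0587) and when the fit held the 6 libraries of the cross alone (adjusted p = 0.111). It was also lost without any 1 of those libraries except Col-0 x Ler-1 replicate 2 (adjusted p up to 0.299).

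Hybrids mostly lay between their parents. Of the members called between the parents, the mean of the hybrid was between those of its parents in 76 of 78 for Col-0 x Bur-0, 48 of 51 for Col-0 x C24, 33 of 34 for Col-0 x Kro-0 and 51 of 58 for Col-0 x Ler-1. Among those 10 points or more apart it was 30 of 31, 24 of 25, 15 of 15 and 19 of 21. On a scale where Col-0 is 0 and the other parent 1, the median position of the hybrid over those was 0.565 in Col-0 x Bur-0, 0.479 in Col-0 x C24, 0.441 in Col-0 x Kro-0 and 0.366 in Col-0 x Ler-1. The Col-0 x Kro-0 counts include the member of AT4G17510 and AT4G17512, and without it they were 32 of 33 and 14 of 14, with a median position of 0.456. The parents were chosen as called, which fixes that they differ, so these counts describe the hybrids and are not a test.

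Among members outside the parental range was a TMT2 pair of the first and the fourth donors, at 78.3% and 72.7% in Col-0 x Ler-1, 22.6% and 27.3% in Ler-1, and 66.7% and 55.2% in Col-0 (adjusted p = 0.253). AT3G57470 was at 46.3% and 56.1% in Col-0 x Bur-0, 12.5% and 8.47% in Bur-0, and 40.5% and 52.4% in Col-0 (adjusted p = 0.179). The AT3G57470 hybrid libraries overlapped those of Col-0, the TMT2 ones lay above both parents, and neither was called. AT3G05160 came closest to a call away from the mid-parent in Col-0 x C24 (adjusted p = 0.0519), with a hybrid mean of 60.2% ± 5.74, 47.0% ± 6.70 in C24 and 98.8% ± 0.028 in Col-0.

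**Figure D5:**
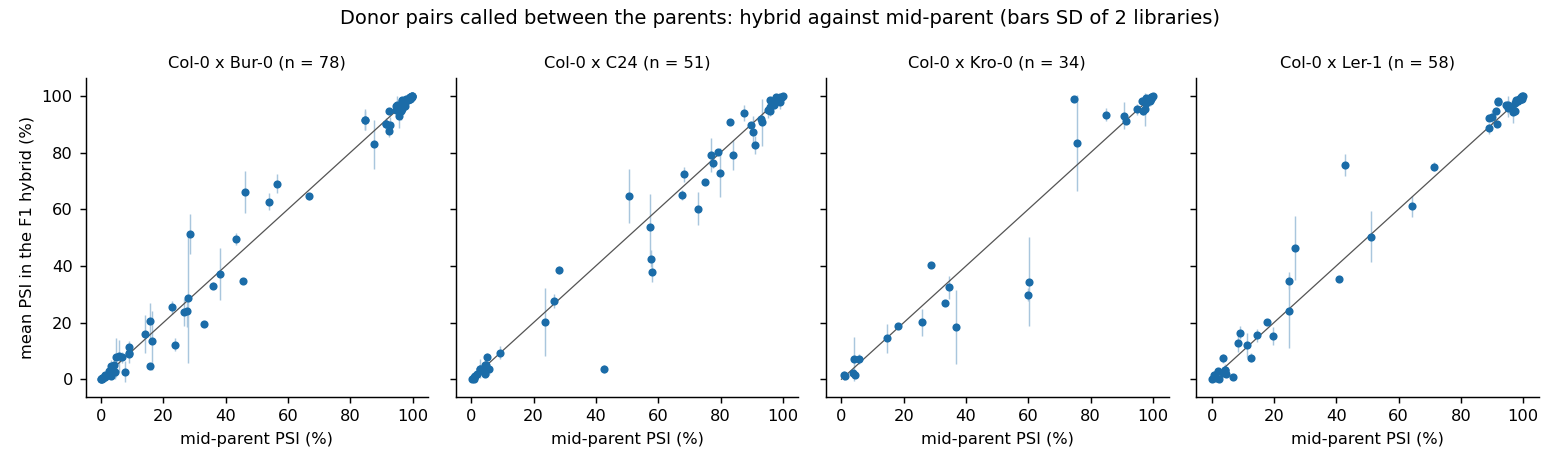
Mean PSI (%) of the F1 hybrid, on the vertical axis with bars for the SD of 2 libraries, against the mean of its parents, on the horizontal axis, for the donor pairs called between the parents (78, 51, 34 and 58), with the line of equality. Most pairs lie along the line, and the farthest below it in Col-0 x C24 is GGH3, at 3.51% in the hybrid.

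Of 29 listed splicing factors, 15 held 20 members, and in the 4 accession comparisons 0 of 20, 0 of 18, 1 of 19 and 0 of 19 tested were called, the 1 being RS40 in Kro-0, lower, where 8.95%, 6.02%, 5.19% and 6.97% of all events were called. Their median difference from Col-0 was -0.174 points for Bur-0, -1.48 for C24, -1.67 for Kro-0 and -1.81 for Ler-1. By the test of any difference 4 of 18 were called, near the 19.8% of all events. The list did not hold AT5G09880, the splicing factor described above, with a member called higher and a second called lower in Bur-0. SR34, an SR protein, had 40.9% and 44.7% in Kro-0 and 73.7% and 64.4% in Col-0, without overlap and without a call (adjusted p = 0.0694). SR45a, an SR-like protein, had 10.3% and 13.8% in C24 and 29.4% and 47.5% in Col-0 (adjusted p = 0.0522). Other members of the list were low in every accession, such as that of RS41, with group means of 3.96% in Bur-0 to 7.60% in Col-0, and that of SR34a, with 0% in Kro-0 to 2.42% in Col-0.

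Of 12 listed genes of the U1 particle and donor recognition, 4 held 8 members, of which 5 were tested in each accession comparison and none was called by edgeR. U1-70K, a protein of the U1 particle itself, had a member 796 nt apart with a PSI of 56.4% and 35% in Bur-0, 33.3% and 47.6% in Kro-0, 35.8% and 28.6% in C24, 23.7% and 25.2% in Ler-1, and 18.4% and 34.2% in Col-0. The 2 libraries of Bur-0, Kro-0 and Col-0 lay far apart, and Bur-0 was not called (adjusted p = 0.0954). PRP39, a U1-associated splicing factor, had 18.5% and 24.1% in Bur-0 and 12% and 7.78% in Col-0 (adjusted p = 0.0716). UNE6, a LUC7-like protein, stayed between 13.1% and 26.8% in all libraries.

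The other lists held few members. Their counts of calls stand beside 8.95% of all events called for Bur-0, 6.02% for C24, 5.19% for Kro-0 and 6.97% for Ler-1, and are too small to be set against these shares. Clock genes held 8 members in 4 of 24 genes, of which 7, 6, 7 and 6 were tested in those comparisons, and 1 was called in Bur-0: GI, whose 5′ UTR donor 102 nt away took no read in Bur-0 and 3.10% and 2.05% of PSI in Col-0 (adjusted p = 0.0318). PRR7, a pseudo-response regulator of the clock, had a member at 63.9% and 73.2% in Bur-0, against 85.2% and 83.8% in Col-0 (adjusted p = 0.261). Light signalling genes held 5 members in 3 of 18 genes, of which 5, 4, 5 and 4 were tested, and PAT1 was called higher in C24 and Ler-1. Photosynthesis genes held 4 members in 2 of 15 genes, all tested, and a member of CA1, a carbonic anhydrase, was called higher in all 4 accessions by 0.0655 to 0.0667 points, with a PSI of 99.9% in both Col-0 libraries. Stress and abscisic acid genes held 3 members in 2 of 10 genes, all tested, and CIPK3 was called higher in Bur-0, Kro-0 and Ler-1. The members of FLK, a flowering regulator, and of ATML1, an epidermal transcription factor and the 1 gene with a member among 7 markers of other leaf cell types, were not called. ATML1 had group means of 1.33% to 3.85% in the accessions, and the 8 immunity genes held no member.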

How the data were processed

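PolyA RNA of first leaves was sequenced in 18 libraries of 9 groups, with 2 biological replicates a group per the series' design text. The authors deposited, for each library, counts of reads for the 2 forms of each splicing event, which are whole numbers and not normalized. The authors also deposited PSI as a fraction, and in every event it equalled the second count divided by both counts plus 1. Per the submitters' processing notes, the tools included HISAT2, without a version, and edgeR 3.0.8, and the build was TAIR10. How events were defined, how reads were counted and filtered, and what each tool did are not given in the sources used here. Per the labels' protocols, libraries were made from random-primed, nebulised cDNA and no step that marks the strand is stated, so reads of overlapping genes on opposite strands cannot be told apart. The strand was read from the end that the 2 introns of an event share. In 9 members it was opposite to the strand in the event name, and 12 members carry the names of 2 genes.

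Donor and acceptor positions were read from the event names and set on the TAIR10.1 RefSeq genome and annotation, whose coordinates are those of TAIR10, and 912 members matched a RefSeq symbol or locus. The PSI of library pairs was averaged (SD, n = 2). Tests used the edgeR 4.0.16 quasi-likelihood fit in R 4.3.3 on both counts of a library, with terms for library, form and form by group. An event was tested where every compared library had at least 10 reads. Each comparison had its own fit over the events tested in it, with the 10 accession libraries for the accessions and all 18 libraries for the hybrids. P-values were Benjamini-Hochberg adjusted over all events of all types, and an event was called under 0.05. Alternatives were minimums of 20 and 1 reads, DESeq2 1.42.0, limma 3.58.1 on PSI, the plain share of reads for PSI, TMM factors for each form, a replicate block, only the compared libraries, each library left out in turn, and events with coinciding introns left out. The test that the 4 accession effects are equal was not rerun with other tools, other depth minimums or libraries left out. The tests were tested on simulated data. Summaries and figures used numpy 2.4.6, pandas 2.3.3, SciPy 1.17.1 and matplotlib 3.10.9.

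The read counts of all events were compared between the replicates of a group. None agreed within sampling noise, with a chi-square per degree of freedom of 5.06 to 22.9. This compares numbers of reads, after allowing for depth, and is not a measure of PSI or donor use. The members, gene lists and tests were chosen with earlier results of these data known. Named members were, 1 per gene and comparison, the 6 largest rises and 6 largest falls among called members without overlap for each accession, the 3 and 3 for each hybrid, the 8 nearest 50%, the 4 with most reads, the 4 widest, those beside the distance threshold, and all members in listed genes. The TMT2 donors were added after values were seen. Members of 1 gene can share an intron and its reads, as 208 members did. Events not listed in every file were not used here.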

Additional observations from a re-analysis of the deposited data

Results flagged for a closer look

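The results below drew attention because the difference from Col-0 was not the same in Bur-0, C24, Kro-0 and Ler-1, by the edgeR test that the 4 effects are equal, adjusted over all events. Every effect is taken against the same 2 Col-0 libraries. Unlike the other tests, this one was not rerun with other tools, other depth minimums or libraries left out.

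In MGT2 (adjusted p = 1.5e-10, and 8.9e-07 at its second acceptor) Bur-0 and Kro-0 were high and C24, Ler-1 and Col-0 at or near 0. Bur-0 alone was called in AT5G09880 (6.8e-09), AT1G17145 (6.1e-07), AT1G20890 (0.00011), GSL03 (0.00013) and AT1G36070 (0.0089), each value being the adjusted p. C24 alone was called in GGH3 (adjusted p = 4.5e-08), AT3G57810 (1.1e-06), CAT3 (1.6e-05) and AT1G34200 (0.00026), and in the first AT3G05160 member described above (4.8e-09). The second AT3G05160 member was called in Bur-0, Kro-0 and Ler-1. Kro-0 alone was called in AT1G48610 (adjusted p = 4.7e-06), AT4G10060 (3.9e-05), AT2G24690 (0.044) and RS40 (0.049). It was also the 1 accession called in the AT4G17510 and AT4G17512 member (7.6e-10), whose introns coincide in the Kro-0 assembly. In AT2G24690 and RS40, however, C24 lay near Kro-0 without a call, and the RS40 call was lost when any compared library was left out. A lone call does not show that the other accessions stayed at the Col-0 level. Ler-1 alone was called in SOS4 (adjusted p = 4.4e-07), VAB2 (0.0031) and TH9 (0.0072).

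Other members were called in more than 1 accession. The adjusted p was 4.6e-08 in PAT1, higher in Ler-1 and C24, and 4.7e-07 in TMT2 for the second and the third donors, higher in C24 and Kro-0. The TMT2 pair of the first and the fourth donors (adjusted p = 3.9e-05) was called higher in C24 and lower in Ler-1, and the Ler-1 call (adjusted p = 0.0446) was lost without any 1 of the 4 libraries compared and in 4 other settings, DESeq2 among them. RBL6 (adjusted p = 2.7e-05) was higher in C24 and Kro-0, and QQT2 (8.7e-05) in Bur-0 and Ler-1. Lower members were AT3G57470 (adjusted p = 7.1e-08) in Bur-0, C24 and Ler-1, ATMAK3 (0.001) in Bur-0 and C24, and AT4G00810 (0.0039) in Bur-0 and Ler-1. The AT4G10970 member that fell (0.00073) was called only in Bur-0, while the C24 mean lay above that of Col-0.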

How the results depend on the processing

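Leaving out 1 library gave 33 to 58 calls in Bur-0 (78 with all libraries), 17 to 26 in C24 (51), 19 to 25 in Kro-0 (34) and 19 to 29 in Ler-1 (58), and 108 to 169 for any difference among accessions (165). The count moved by more than 1.5 times without any of the 4 compared libraries for C24 and Ler-1, without any but Col-0 replicate 2 for Bur-0, and without either Kro-0 replicate for Kro-0 or either Bur-0 replicate for any difference. For Col-0 x Ler-1 it gave 0 to 1, the call remaining only without Col-0 x Ler-1 replicate 2, and 0 for each other hybrid. In a fit with 1 library left out, the lone library of a group is assumed to vary like the others. DESeq2 called 49 members in Bur-0, 22 in Kro-0 and 32 in Ler-1, and 1 each in the hybrids with C24 and Kro-0. Limma on PSI called 40 in Bur-0, 24 in Ler-1, 90 for any difference, 3 in Col-0 x Bur-0, 3 in Col-0 x C24, 5 in Col-0 x Kro-0 and 0 in Col-0 x Ler-1. A fit of only the compared libraries called 37 in Ler-1, 1 in Col-0 x C24 and 0 in Col-0 x Ler-1. TMM factors for each form called 1 in Col-0 x Kro-0 and 0 in Col-0 x Ler-1. Fewer libraries leave the fit less information, and the cause of the other changes was not tested. A minimum of 20 reads lowered the median PSI to 35.4% in Bur-0, 33.3% in Kro-0, 32.0% in C24, 33.8% in Ler-1 and 31.2% in Col-0. Leaving out events with coinciding introns, chosen after seeing the data, gave 78, 51, 33 and 58 calls.

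The labels state no shared batch for replicate numbers, so the numbers were not taken as pairs. The deviations of same-numbered libraries correlated at -0.119 to 0.239. Between Col-0 and its hybrids with Bur-0, C24, Kro-0 and Ler-1 they correlated at 0.200, 0.0527, 0.239 and 0.152. Whether same-numbered libraries share a component was not tested. With the replicate block 76 members were called for Bur-0, 51 for C24, 35 for Kro-0, 58 for Ler-1 and 166 for any difference, and 0, 1, 2 and 1 in the hybrids with Bur-0, C24, Kro-0 and Ler-1. Of 336 values of named members under other settings 296 kept their side of the threshold, 40 lost it and 0 changed direction. Of 198 with 1 library left out, 138 kept it, 60 lost it and 0 changed direction. The calls lost most often, in 8 settings each, were RS40 in Kro-0, the TMT2 pair of the first and the fourth donors in Ler-1, and AT5G61820 in Col-0 x Ler-1.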
